A study of Mus musculus with 9 samples.

Results

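The genes described here encode the proteins of the cytosolic ribosome. They were chosen by symbol: every row with values whose symbol begins with Rpl or Rps followed by a digit or by p, leaving out the Rps6 kinases. The rule found 89 genes among 17559 genes with values. Of these, 30 encode proteins of the small (40S) subunit, 43 encode proteins of the large (60S) subunit and 3 encode the P-stalk, and these 76 are called the core genes below. The other 13 are 9 named paralogs and 4 further matches. These matches include Rpl34-ps1, named as a pseudogene and listed as protein coding in RefSeq. They also include Rps19bp1, a gene for a protein that binds RPS19 and is no ribosomal protein. The ribosomal proteins Rpsa, Fau and Rack1 carry other symbols, so the rule missed them, and they are given as a comparison.

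Ribosomal proteins assemble with ribosomal RNA in the nucleolus into both subunits, which join on an mRNA to make protein. Many of their mRNAs begin with a run of pyrimidines at the 5′ end, the TOP motif, through which the mTOR pathway and the protein LARP1 set how much they are translated and how stable they are. Heat shock is known to slow translation and ribosome assembly while heat shock factor 1 drives the transcription of chaperone genes.

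RNA was sequenced from primary peritubular myoid cells of C57BL/6J mouse testis, the smooth-muscle-like cells around the seminiferous tubules. The control group was untreated and grown at 37 °C. Both heated groups stood for 30 min in a water bath at 42 °C, went back to 37 °C, and were collected 1 h or 6 h later. Each group had 3 libraries, numbered 1 to 3, and nothing used here says whether these came from separate animals or cultures, so the p-values measure the spread between libraries, which may be technical. The age of the mice is not given in the sources used here. Values are FPKM, fragments scaled for transcript length and for the number of mapped fragments in the library, so that a gene's value is a share of its library. The step that 1 read makes in low FPKM values put the depth at 18500000 to 19700000 reads a library, a 1.065-fold range. This is an estimate: 83.3% to 91.0% of the low values came out within 0.2 of a whole number of reads, where 40% would by chance, with a length offset chosen from the data.

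The treatment and cell type were checked first. Of 5 heat-shock reference genes 4 passed the test at 1 h (Hspa1a, Hspa1b, Dnajb1 and Bag3), and the summed FPKM of the 5 was 132 to 151 in controls, 4029 to 5874 at 1 h and 182 to 522 at 6 h. All 10 myoid markers were above the low-value limit, with a summed FPKM of 3667 to 5579, and Acta2, smooth muscle actin, stood between 992 and 1627 FPKM. Markers of other testis cells were also present: Insl3, a Leydig cell hormone, ranged from 181 to 1607 FPKM. The summed FPKM of 14 Sertoli markers was 4159 in control 3 and 587 to 1024 in the other libraries, with 11 of the 14 highest in control 3. The control 3 library also had the lowest ribosomal protein values and the 6 h 2 library the highest, so results are given with and without both. In bulk RNA, fewer cells of a type and less RNA per cell cannot be told apart.

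The start sites of some core genes show the pyrimidine run by which this class of mRNA is known. RefSeq windows of 300 bases (assembly GRCm38.p6) matched 68 of the 89 genes, and 56 of the 76 core genes with 66 start sites. A run of at least 6 C or T that reached into the stretch from 10 bases before to 15 bases after the start was found at 40 of the 66 core starts, or 60.6%, and at 33.1% of all 32851 starts in the table. The windows below run 5′ to 3′ from 25 bases before the start through the first 20 bases transcribed, and the capitals mark the longest run that reaches into that stretch. Runs further from the start are left in lower case. The first 3 have a run across the start, the next 3 have it just inside the transcript, and the last 2 have none by this rule.
Rps6 (chr4:86857348-86857392, minus strand): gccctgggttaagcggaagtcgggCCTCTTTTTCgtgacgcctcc
Rplp2 (chr7:141447626-141447670, plus strand): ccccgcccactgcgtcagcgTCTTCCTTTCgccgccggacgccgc
Rpl35 (chr2:39005112-39005156, minus strand): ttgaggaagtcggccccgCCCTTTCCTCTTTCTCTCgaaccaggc
Rps2 (chr17:24720038-24720082, plus strand): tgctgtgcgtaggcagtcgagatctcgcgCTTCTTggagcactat
Rps23 (chr13:90923097-90923141, plus strand): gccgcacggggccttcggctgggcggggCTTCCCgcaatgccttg
Rpl39 (chrX:37085203-37085247, minus strand): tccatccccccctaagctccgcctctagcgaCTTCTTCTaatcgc
Rps3 (chr7:99483690-99483734, minus strand): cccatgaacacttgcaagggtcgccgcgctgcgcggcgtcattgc
Rpl41 (chr10:128549149-128549193, minus strand): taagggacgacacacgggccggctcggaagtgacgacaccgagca
These are annotated starts and not starts measured in these cells.

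Other motifs were counted on both strands over the same 300-base windows. The letters CCGGAAG, which ETS factors such as GABP are known to bind, were in 24 of the 66 core windows (36.36%) and in 8.86% of all windows. The letters GCCATNTT, bound by YY1, were in 15 (22.73%) against 6.05%. The TATA box letters TATAAA were in 6 (9.09%) against 13.62%. A heat shock element, read as GAA, TTC and GAA with 2 bases between neighbours, was in 2 windows (3.03%) against 0.6%. Matches of one motif that overlap those of another were counted for both, and a match describes the window only.

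Ribosomal protein genes were among those with the highest FPKM in every library. Of the 50 genes with the highest mean FPKM, 16 were members, of the top 100 genes 43, and of the top 200 genes 66. In single libraries the top 200 genes held 60 members (control 3) to 72 members (6 h 2), and the top 50 genes held 8 to 24. The mean over the 9 libraries had a median of 804 FPKM over the core genes, 807 for the 40S genes and 740.0 for the 60S genes, and 1324 for the P-stalk. The 3 ribosomal proteins with other symbols lay in the same range, from 386 FPKM for Rack1 in control 3 to 1142 FPKM for Fau in 6 h 2. Rplp1 had the highest mean, 1974 FPKM, and Rpl34 the lowest, 33.9 FPKM, a 58.2-fold range, although the ribosome holds 1 copy of nearly every protein. Rps15a, at 60.3 FPKM, was assigned a transcript of 5125 bases, and Rpl34, the lowest, one of 628 bases. The 62 core genes with transcripts under 1200 bases had a median of 827 FPKM against 445 for the 14 longer ones. The part of the assigned length in the low values was not tested. For Rpl34 the table also held Rpl34-ps1, at 411 to 986 FPKM per library, which was 1587% to 2203% of Rpl34 itself. Ribosomal protein genes have many near-identical copies in the genome, so the division of reads within such a pair is uncertain.

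**Figure D1:**
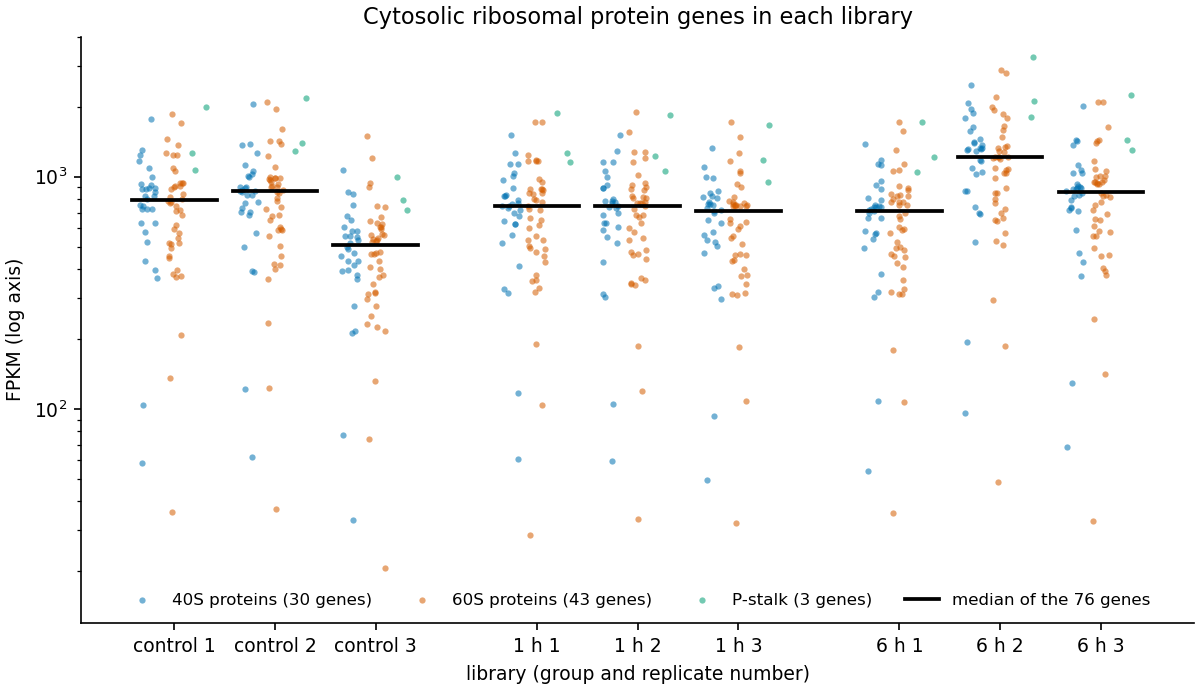
FPKM (log axis) of the 76 core genes in each of the 9 libraries, 1 point per gene, coloured by subunit, with a bar at the median. The median is 508 FPKM in control 3, 1210.2 in 6 h 2 and between 712 and 864 in the other 7 libraries.

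Members took 12.8%, 13.8% and 9.25% of the summed FPKM in controls 1 to 3. They took 12.5%, 12.6% and 11.4% in the 1 h libraries, and 11.96%, 18.0% and 13.9% in the 6 h libraries. The group means were 11.96% ± 2.40 in control, 12.2% ± 0.652 at 1 h and 14.6% ± 3.08 at 6 h (SD, n = 3). The groups overlapped: the 7 libraries other than control 3 and 6 h 2 covered 11.4% to 13.9%, and libraries of all 3 groups were among them. The 1 h libraries were the most alike. Weighted by transcript length, which is closer to a share of fragments, members made up 3.05% in control 3, 7.27% in 6 h 2 and 4.05% to 5.23% elsewhere.

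**Figure D2:**
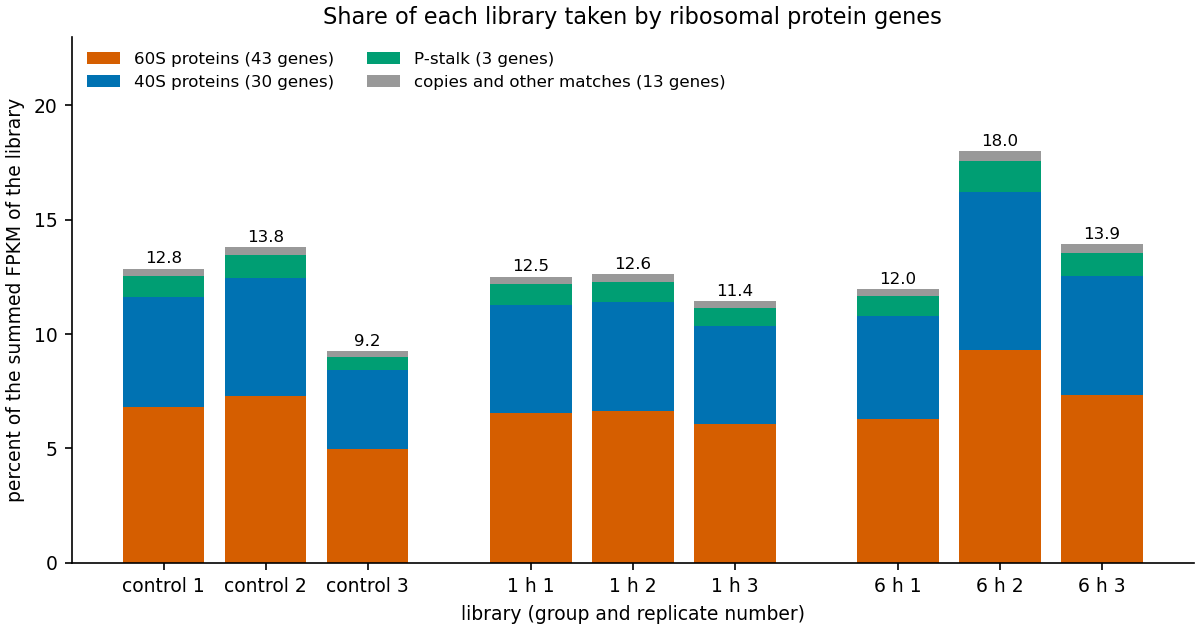
Percent of the summed FPKM of each library taken by ribosomal protein genes, stacked by class, with the total above each bar. Control 3 is lowest at 9.2% and 6 h 2 highest at 18.0%, and the other 7 lie between 11.4% and 13.9%.

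Both subunits varied together between libraries. The summed FPKM of the 60S genes was 1.43 ± 0.0221 times that of the 40S genes in control, 1.404 ± 0.0144 times at 1 h and 1.38 ± 0.0292 times at 6 h (SD, n = 3). The ratio spanned a 1.08-fold range over the 9 libraries, whereas the summed FPKM of all members spanned 2.41-fold.

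No ribosomal protein gene passed the test after heat, at either time. Of the 89 genes, 85 reached 1 FPKM in at least 3 libraries and were tested, and Rpl3l, Rpl10l, Rpl32l and Rpl39l were not. At 1 h against control 0 of 85 had an adjusted p below 0.05 (limma, Benjamini-Hochberg over 11460 genes), where 0.157% of all genes tested did, and 0 had an unadjusted p below 0.05. The count was again 0 of 85 at 6 h against control, with a background of 0.0%, and 0 had an unadjusted p below 0.05. Between the heated groups it was 0 of 85 with a background of 0.279%, and 1 gene, Rps19bp1, had an unadjusted p below 0.05. The lowest adjusted p among members in limma was 0.546 at 1 h, 0.877 at 6 h and 0.308 between the times. With 3 libraries a group and this spread, the absence of a call does not show that the levels were equal.

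At 1 h the core genes stayed near their control level in the fitted values. Their median log2 change was 0.03, with the lowest value -0.12 (Rps2), while the median over all genes tested was -0.17. Of the 76 values 54 were above 0 and 22 below. At 6 h against control the median was 0.36, from 0.20 to 0.60 (Rps27), with all 76 above 0, against -0.06 over all genes. Between 6 h and 1 h it was 0.33, from 0.15 (Rps4x) to 0.50 (Rps21), again with all 76 above 0, against 0.09 over all genes. The comparisons share libraries, so these counts are not independent of each other.

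The direction at 1 h rested on control 3, and that at 6 h against control on control 3 and 6 h 2 together, since it kept its sign without either one alone. The median at 6 h against 1 h stayed above 0 in all 21 alternatives. Some of these cannot move it, such as leaving out a control library, the replicate block or dropping the variance trend. Without control 3, all 76 core genes had values below 0 at 1 h, with a median of -0.20, and the 6 h median was 0.12, with 72 above 0. Without 6 h 2, the 6 h median was 0.15. The median at 6 h against 1 h was then 0.12, with 72 of 76 above 0, beside 0.12 over all genes. Without both, the median at 6 h against control was -0.09, with 8 of the 76 above 0 and 68 below. Scaling mattered at 1 h too: quantile normalization gave 18 core genes above 0 and a median of -0.06, and median-of-ratios scaling gave 76 above 0 and a median of 0.21. Median-of-ratios scaling also brought the median of all genes at 1 h from -0.17 to -0.01. At 6 h against control all 76 were above 0 with same-sum and median-of-ratios scaling, and 74 with quantile normalization. The part of the cell makeup of control 3 in these values was not tested.

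**Figure D3:**
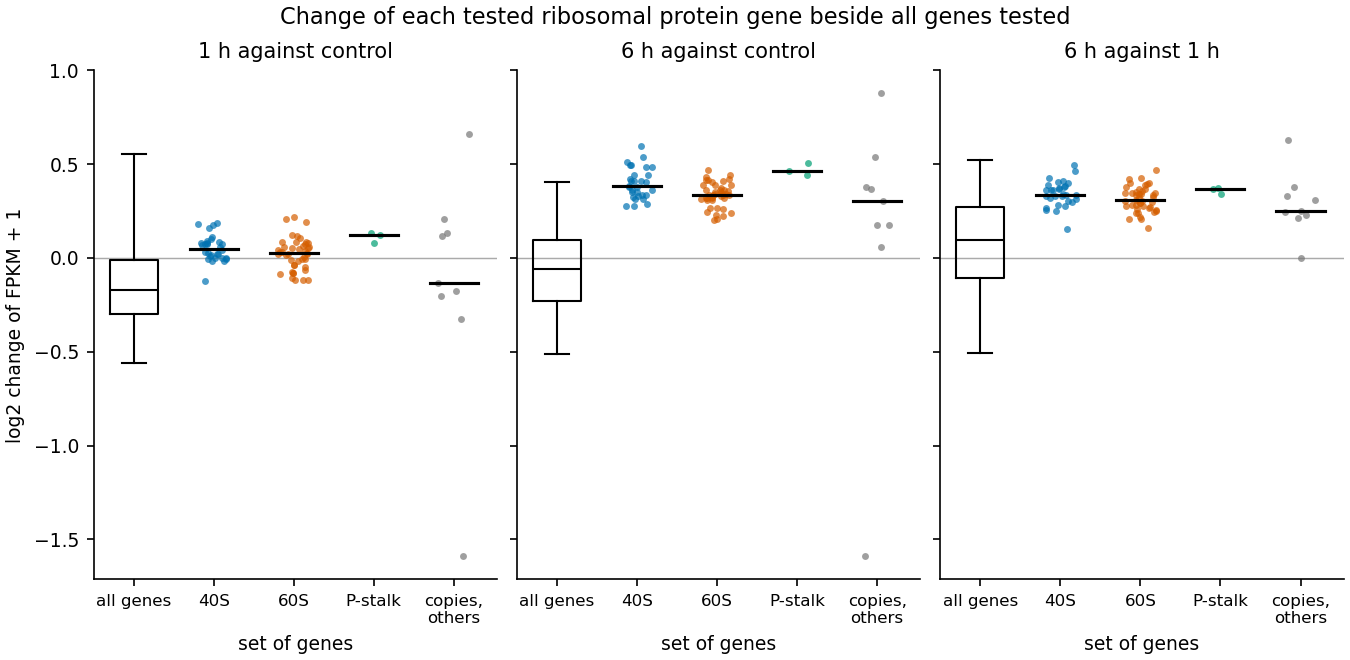
Log2 change of FPKM + 1 for each of the 85 tested members in the 3 comparisons, by class, with a bar at each class median; the box for all 11460 genes marks the quartiles and median, with whiskers at the 5th and 95th percentiles. Core genes have a median of 0.03 at 1 h and lie between 0.20 and 0.60 at 6 h against control, and none passed the test.

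The ranges of the raw values were compared as well. No member had all 3 libraries at 1 h above, or all 3 below, the controls, where 4.49% of all genes tested were wholly higher and 21.4% wholly lower. The member count at 6 h against control was 0 in both directions, with 1.89% and 5.32% over all genes. Between the heated groups 7 of 85 members (8.24%) were wholly higher, against 15.2% of all genes, and 0 were wholly lower, against 4.97%. The 7 were Rpl35, Rpl35a, Rpl38, Rpl7l1, Rps13, Rps19bp1 and Rps27, listed because the count is small and partly chosen after their values were seen. Control 3 was the lowest library and 6 h 2 the highest in all 76 core genes. None of these genes could therefore be wholly lower in any of the comparisons, and their counts of 0 in that direction carry no information.

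The P-stalk is the flexible arm of the large subunit that recruits and activates elongation factors, with RPLP0 as its base and RPLP1 and RPLP2 as its arms. Rplp1 stood at 1985, 2189.7 and 998.6 FPKM in controls 1 to 3, at 1883, 1838 and 1662 FPKM at 1 h and at 1714, 3258 and 2237 FPKM at 6 h. The group means were 1724 ± 637, 1794 ± 117 and 2403 ± 785 FPKM (SD, n = 3). Control 3 lay far below the other libraries and 6 h 2 far above, while 6 h 1 was lower than controls 1 and 2. The log2 change at 6 h against control was 0.51 (SE 0.337, limma adjusted p 0.877). Rplp0 had 1269, 1399.6 and 796 FPKM in controls, 1268, 1230.35 and 1174 FPKM at 1 h, and 1212, 2125 and 1441 FPKM at 6 h. Rplp2 had 1071, 1283 and 716 FPKM in controls, 1151, 1060.4 and 950.3 FPKM at 1 h, and 1049, 1810.3 and 1305 FPKM at 6 h. In both, control 3 was again the lowest library and 6 h 2 the highest, with log2 changes at 6 h of 0.46 (SE 0.276) for Rplp0 and 0.44 (SE 0.273) for Rplp2, neither past the test (both limma adjusted p 0.877).

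In the small subunit, Rps2 and Rps23 were among the genes with the highest means, 1682 and 1267 FPKM. RPS2 and RPS3 lie at the mRNA entry channel, and RPS23 lies in the decoding centre. Rps2 stood at 1772, 2058 and 1072 FPKM in controls, 1505, 1516 and 1329 FPKM at 1 h, and 1385, 2484 and 2019 FPKM at 6 h. All 3 of its 1 h libraries lay within the control range, below controls 1 and 2 and above control 3. Rps3 ranged from 277 FPKM in control 3 to 694 FPKM in 6 h 2. RPS6 is the substrate of the S6 kinases downstream of mTOR: Rps6 had 629.7, 708 and 433 FPKM in controls, 626, 634 and 522 FPKM at 1 h, and 565, 869.8 and 712 FPKM at 6 h. RPS19, the protein most often mutated in Diamond-Blackfan anaemia, is needed to process the 18S rRNA precursor, and Rps19 stood at 720 ± 121, 754 ± 38.1 and 961 ± 318 FPKM in the 3 groups (SD, n = 3).

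The largest fitted values among 40S genes at 6 h belonged to Rps27 and Rps12. Rps27 had 722, 768 and 416 FPKM in controls, 699, 699 and 699.6 FPKM at 1 h, and 754, 1326 and 796 FPKM at 6 h. The log2 change at 6 h against control was 0.60 (SE 0.287, unadjusted p 0.0663, limma adjusted p 0.877), and 6 h 1 lay below control 2. Rps12 had 1166, 1266 and 752 FPKM in controls, 1138, 1158 and 983 FPKM at 1 h, and 1134, 2082 and 1442 FPKM at 6 h, with a log2 change of 0.54 (SE 0.277, limma adjusted p 0.877). At 6 h against 1 h Rps21 had the largest value of the core genes, 0.50 (SE 0.308, limma adjusted p 0.561), and Rps4x, an X-linked gene, the smallest, 0.15 (SE 0.293, limma adjusted p 0.877).

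In the large subunit, leaving out the P-stalk, Rpl23a, Rpl41 and Rpl35 had the highest means, 1898, 1827 and 1401 FPKM. RPL23A and RPL35 sit at the exit of the peptide tunnel. Rpl23a stood at 1694, 1954 and 1499 FPKM in controls, 1711, 1903 and 1711 FPKM at 1 h, and 1716, 2796 and 2093 FPKM at 6 h. Its control 3 value was closer to the other libraries than that of Rplp1 or Rps2. Rpl35 had 1244, 1270.3 and 1168 FPKM at 1 h, all below its 6 h values of 1308, 1986 and 1635 FPKM, while its controls at 1453, 1609 and 939 FPKM spanned both. The value for Rpl39 at 1 h, among the largest of the 60S genes, was 0.21 (SE 0.268, limma adjusted p 0.725). At 6 h against 1 h the value for Rpl36 was 0.47 (SE 0.285, limma adjusted p 0.558) and that for Rpl7 0.16 (SE 0.249, limma adjusted p 0.844).

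RPL5 and RPL11, with 5S rRNA, form the particle that binds MDM2 and stabilizes p53 when ribosome assembly is disturbed. Rpl5 had 447, 502 and 296 FPKM in controls, 454, 464 and 376 FPKM at 1 h, and 409, 644 and 494 FPKM at 6 h. Rpl11 had 1233, 1098 and 593 FPKM in controls, 882, 902 and 787 FPKM at 1 h, and 895, 1581 and 1074 FPKM at 6 h. Every 1 h value of both genes lay inside its control range, whose lower end was control 3. All 3 values of Rpl11 at 1 h lay below controls 1 and 2, while for Rpl5 only that of 1 h 3 did. Rpl11 had the widest range of any core gene relative to the others, given below.

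The named paralogs split into expressed and silent copies. Rpl10l, a copy of Rpl10 known from male germ cells, did not exceed 0.09 FPKM, Rpl39l did not exceed 0.4 FPKM and Rpl3l, known from striated muscle, did not exceed 0.05 FPKM. Rpl32l did not exceed 0.23 FPKM. In the same libraries Rpl10 stood at 670.0 to 1781 FPKM. Germ cell markers summed to 1.11 to 8.37 FPKM over 9 genes. These levels are too low for a comparison between groups.

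Rpl22l1 was the paralog with the highest level relative to the gene it is named for. RPL22 binds RNA and is known to hold down its paralog, and both proteins can take the same place in the ribosome. Rpl22l1 had 149.7, 207 and 85.7 FPKM in controls, 144, 193 and 148 FPKM at 1 h, and 148, 332 and 166 FPKM at 6 h. This was 110% to 179% of Rpl22, with group means of 131% ± 31.6, 146% ± 13.7 and 145% ± 31.4 (SD, n = 3). Replicates within a group differed by more than the group means did. Rpl22 itself had 136, 123 and 74.4 FPKM in controls, 104, 119 and 108 FPKM at 1 h, and 107, 186 and 142 FPKM at 6 h.

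Other paralogs stood below the gene they are named for. Rpl36al, which encodes a protein very like RPL36A, was at 35.3% to 47.2% of Rpl36a. Rps27l, a target of p53, was at 34.4%, 32.9% and 46.1% of Rps27 in controls, 30.0%, 31.5% and 25.8% at 1 h, and 23.7%, 19.1% and 37.5% at 6 h. The lowest library of Rps27l was 6 h 1 and the highest 6 h 3, unlike Rps27: it had 248, 252 and 192 FPKM in controls, 209.8, 220.1 and 180.25 FPKM at 1 h, and 179, 253 and 298 FPKM at 6 h. Its log2 change at 6 h against control was 0.06 (SE 0.211, limma adjusted p 0.975). Rpl7l1, a ribosome assembly factor related to RPL7, was at 4.11% to 6.34% of Rpl7, and its log2 change at 6 h was 0.18 (SE 0.192, limma adjusted p 0.889). Rpl36al had a log2 change at 1 h of -0.20 (SE 0.240, limma adjusted p 0.709). Rpl37rt was at 63.4% to 97.6% of Rpl37.

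A pair of matches had low and uneven values. Rps27rt was listed at 25.6, 0 and 12.7 FPKM in controls, 12.4, 0 and 0 FPKM at 1 h, and 0, 12.4 and 0 FPKM at 6 h. Rpl31-ps12 was listed at 10.2, 0 and 5.07 FPKM in controls, 13, 0 and 18.2 FPKM at 1 h, and 4.31, 8.67 and 7.18 FPKM at 6 h. Libraries of 1 group thus held both 0 and values above 10. How reads were divided between copies was not tested. The position the table gives for Rps27 lies within the RefSeq gene Rps27rt on chromosome 9, and not at Rps27 on chromosome 3. In all, 7 core genes (9.21% of the core) had a table position that did not overlap their RefSeq gene, against 0.55% of all genes matched. All 7 positions were on another chromosome than RefSeq gives for GRCm38, among them those of Rpl11, Rpl38, Rps12 and Rps27, so the identity of these genes rests on the symbol and gene ID in the table. The log2 changes of Rps27rt were -1.59 (SE 1.496) at 1 h, -1.59 (SE 1.496) at 6 h and 0.00 (SE 1.496) between the times, with limma adjusted p of 0.651, 0.884 and 1.000. Those of Rpl31-ps12 were 0.66 (SE 1.13) at 1 h and 0.88 (SE 1.13) at 6 h, with limma adjusted p of 0.792 and 0.906.

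Rps19bp1, whose product is known as a binding partner of RPS19 and of the deacetylase SIRT1, was the member with an unadjusted p below 0.05 at 6 h against 1 h. It had 22.1, 27.6 and 15.2 FPKM in controls, 16.4, 18.4 and 15.1 FPKM at 1 h, and 27.1, 22.7 and 29.2 FPKM at 6 h. All 3 libraries at 6 h lay above all 3 at 1 h, and the controls spanned both. The log2 change at 6 h against 1 h was 0.63 (SE 0.210, unadjusted p 0.0146, limma adjusted p 0.308), and at 1 h against control it was -0.33 (SE 0.210, limma adjusted p 0.546). After scaling on the median ribosomal protein gene the changes were 0.34 (SE 0.290, limma adjusted p 1.000) and -0.39 (SE 0.290, limma adjusted p 0.822), so a difference between Rps19bp1 and the ribosomal proteins was not shown.

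Between single libraries, by contrast, the core genes differed widely and as a block. In all 76 core genes control 3 was the lowest and 6 h 2 the highest of the 9 libraries, a pattern found in 3.64% of all genes tested and in 79 of the 85 tested members. The 6 exceptions were Rpl31-ps12, Rpl36al, Rpl7l1, Rps19bp1, Rps27l and Rps27rt, none of them a core gene. The highest library stood 2.46-fold above the lowest in the median core gene, with a range of 1.85 to 3.26-fold. Without control 3 and 6 h 2 the median ratio was 1.35-fold. Both libraries were singled out after their values were seen.

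The median core gene was lower by 0.72 (log2) in control 3 than in the mean of controls 1 and 2, and higher by 0.63 in 6 h 2 than in the mean of 6 h 1 and 6 h 3. The 3 ribosomal proteins with other symbols gave -0.87 and 0.58. Among other highly translated mRNAs with a TOP motif the medians were -0.37 and 0.37 over 14 genes. Proteins of the mitochondrial ribosome, which are made in the cytosol, gave -0.32 and 0.11 over 77 genes, and the respiratory chain and ATP synthase -0.40 and 0.29 over 71 genes. Nucleolar assembly factors gave -0.44 and -0.42 over 45 genes, so that in 6 h 2 they lay on the other side of their group from the ribosomal proteins. Translation initiation factors gave -0.30 and -0.11 over 37 genes, and elongation and termination factors -0.44 and 0.22 over 9 genes. Over all 11460 genes the medians were 0.02 and -0.08.

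Transcript length moved with the same offset in genes that are no members. From the shortest to the longest, the median in control 3 was -0.38 for other genes under 600 bases, -0.31 for those under 1000 bases, -0.17 under 2000 bases, 0.01 under 4000 bases and 0.27 for the longest. In 6 h 2 it was 0.31, 0.26, 0.12, -0.08 and -0.36 for the same classes. Most core genes have short transcripts. The 18 core genes of 1000 bases or more had offsets of -0.66 and 0.59, and the 29 under 600 bases had -0.72 and 0.65. Other short and abundant genes, 81 with a mean of at least 200 FPKM and under 1000 bases, had -0.35 and 0.35. The part of transcript length, of library preparation or of cell makeup in the offset was not tested. Markers differed in these libraries as well: 7 of 10 myoid markers were highest in control 3 beside 11 of 14 Sertoli markers, and 6 of 8 fibroblast and stroma markers were highest in 6 h 2, with a summed FPKM of 2737 against 898 to 2156 elsewhere.

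**Figure D4:**
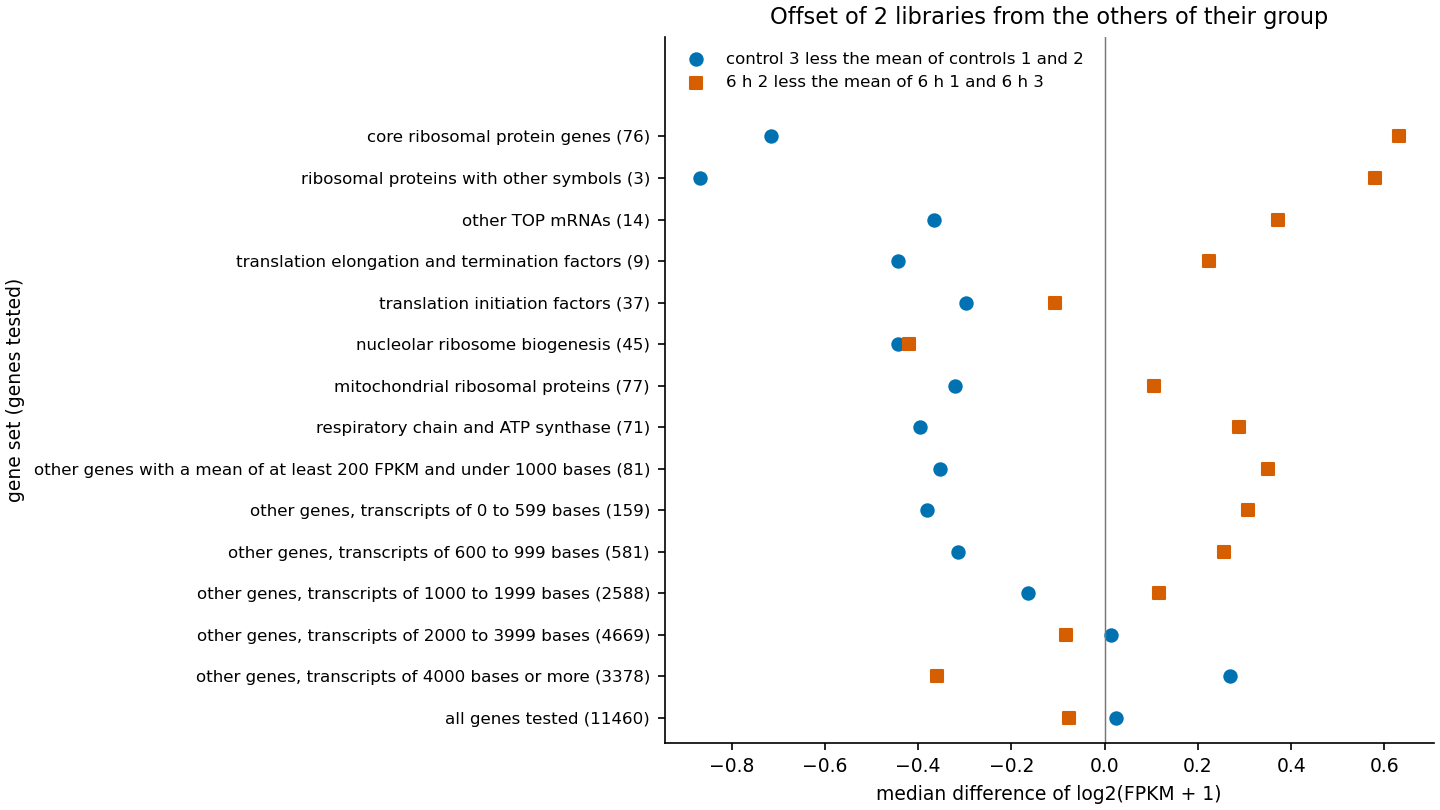
Median difference of log2(FPKM + 1) between control 3 and the mean of controls 1 and 2 (circles) and between 6 h 2 and the mean of 6 h 1 and 6 h 3 (squares), for gene sets with the number of genes tested in brackets. Core ribosomal protein genes lie at -0.72 and 0.63, all genes tested at 0.02 and -0.08, and other genes move from one side to the other with transcript length.

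Relative to each other the core genes were much steadier than in FPKM as deposited. When each library was scaled so that the median core gene was equal, a step chosen after the data were seen, the highest library stood 1.19-fold above the lowest in the median gene, and the widest ratio was 1.41-fold, for Rpl11. The median SD within groups went from 0.350 to 0.0849 on the log2 scale, beside 0.261 over all genes as deposited. Dividing by a shared factor lowers the spread of any set that moves together. Rplp1 kept a low value in control 3, 1526 FPKM beside 1810.0 to 2090 in the other libraries, and Rpl23a a high one, 2291 FPKM beside 1664 to 1983. After this scaling 0 of 85 members passed the test in each of the 3 comparisons, with the lowest limma adjusted p 0.822 at 1 h, 0.484 at 6 h and 1.000 between the times. The scaling takes out any change that the core genes share. This test could therefore only find a member that departed from the others, and cannot show that the set was unchanged. Over all 11460 genes tested, 11 passed at 1 h, 0 at 6 h against control and 31 between the times.

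**Figure D5:**
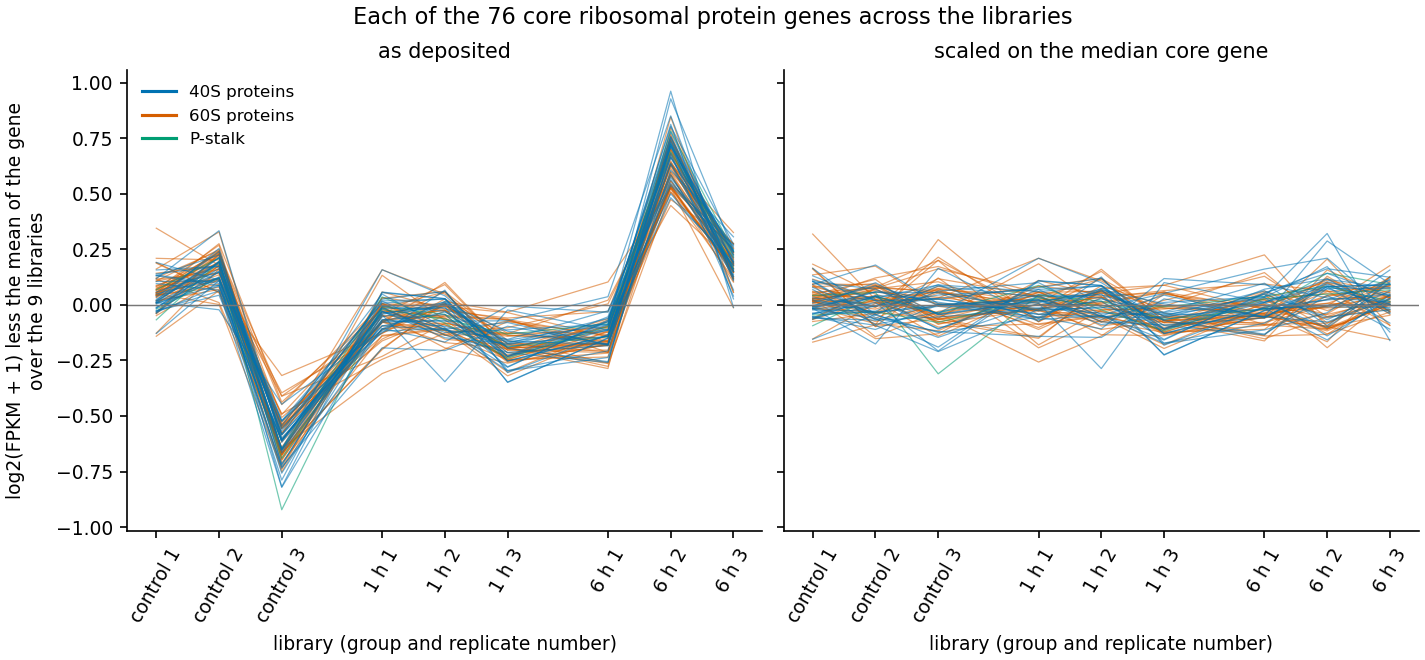
Log2(FPKM + 1) of each of the 76 core genes less its own mean over the 9 libraries, as deposited on the left and after scaling each library on the median core gene on the right; each line is 1 gene, coloured by subunit, and lines only link the values of a gene. The lines dip together in control 3 and peak together in 6 h 2 on the left, and the median range per gene is 2.46-fold on the left and 1.19-fold on the right.

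Over the 9 libraries the correlation (Pearson r) of each core gene with the median core gene ran from 0.919 (Rpl34) to 0.996, with a median of 0.976. Each gene is itself part of that median, and the points share depth and composition. Over the 7 libraries without control 3 and 6 h 2 the median r was 0.914 and the lowest 0.315, again for Rpl34. Of 11375 genes that are no members, 0.48% reached 0.9 over the 9 libraries. The 5 most like were Rack1 (r 0.990), a 40S protein by another symbol, Fbxw17 (0.982), Eef1b2 (0.981), a subunit of the elongation factor that recharges eEF1A, Nsa2 (0.968), a 60S assembly factor, and Sec61b (0.966), part of the channel through which nascent chains enter the endoplasmic reticulum. Fbxw17 had a mean of only 9.57 FPKM.

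Genes that work beside the ribosome gave no call in limma either. Counts of 0 in each of the 3 comparisons were found for 37 initiation factors, 9 elongation and termination factors, 45 nucleolar assembly factors, 15 chaperones of ribosomal proteins and nascent chains, 18 regulators of TOP mRNAs, 14 other TOP mRNAs, 77 mitochondrial ribosomal proteins and 71 genes of the respiratory chain. Over all genes tested, 0.157% were called at 1 h, 0.0% at 6 h against control and 0.279% between the times. At these shares a count of 0 in sets of this size says little about them. At 1 h the median log2 change was -0.27 for mitochondrial ribosomal proteins, -0.23 for nucleolar assembly factors, -0.21 for the regulators of TOP mRNAs, -0.18 for the respiratory chain, -0.16 for the chaperones and -0.10 for initiation factors, beside -0.17 over all genes. It was 0.00 for elongation factors, 0.08 for other TOP mRNAs and 0.03 for the core ribosomal proteins. From 1 h to 6 h it was 0.37 for both mitochondrial ribosomal proteins and nucleolar assembly factors, close to the 0.33 of the core genes. Against control, the 6 h medians were 0.08 and 0.17 for the same sets, below the 0.36 of the core genes. The other sets listed ran from -0.11 for the regulators of TOP mRNAs to 0.27 for other TOP mRNAs. The 3 ribosomal proteins with other symbols had 0.35, near the core genes. Without control 3 and 6 h 2 the core median at 6 h against control was -0.09. Npm1, an abundant nucleolar chaperone, had 708, 989.7 and 478 FPKM in controls, 631, 785 and 589 FPKM at 1 h, and 734, 823 and 771 FPKM at 6 h. Eef1a1, the elongation factor that delivers aminoacyl-tRNA, had 3495, 4523 and 2901 FPKM in controls and 3308, 6027 and 4556 FPKM at 6 h.

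The authors' deposited table gives its own comparison of the groups, with q-values (labelled DEGseq in the headers) and fold changes and without replicate errors in the table. At a q-value of 0.001 or less, the authors' deposited table has 43 of the 76 core genes at 1 h (24 higher and 19 lower), where 55.2% of all genes with a value pass, 11.2% higher and 44.0% lower. It has all 76 higher at 6 h against control and all 76 higher at 6 h against 1 h, where 15.5% and 33.5% of all genes pass as higher (44.1% and 48.7% in either direction). The log2 changes of core genes in the authors' deposited table run from 0.20 to 0.60 at 6 h against control, the same size as the fitted values above, which did not pass limma's test. Without control 3 and 6 h 2, 68 of the 76 fitted values at 6 h against control were below 0. How far the authors' counts rest on these 2 libraries was not tested. Among members, a log2 change of at least 1 in either direction was combined with such a q-value in the authors' deposited table in few cases. These were Rpl31-ps12 and Rps27rt at 1 h and Rps27rt at 6 h against control. Over all genes with a value in the authors' deposited table this held for 1260 of 16069 at 1 h and 1040 of 16115 at 6 h. The authors' deposited table also sorts 13538 genes into 12 clusters by profile, with 65 core genes in cluster 8, 10 in cluster 10 and 1 in cluster 7. Those clusters hold 936, 1225 and 574 genes, so that cluster 8 has 85.5% of the core genes and 6.91% of all genes sorted.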

How the data were processed

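The labels place 9 RNA-seq libraries in 3 groups. Per the submitters' processing notes the authors used HISAT2 2.0.4, Bowtie2 2.2.5 and RSEM 1.2.12 with the mouse build mm10. The deposited table gives FPKM per library and, per the file headers, the authors' log2 fold changes, q-values and cluster numbers. Of 20717 rows, 3158 without values were left out.

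FPKM were tested as log2(FPKM + 1) with limma 3.58.1 in R 4.3.3 (variance trend, all 9 libraries, 3 group means, two-sided, Benjamini-Hochberg over the 11460 genes that reached 1 FPKM in 3 or more libraries, called below 0.05). FPKM are shares of a library, and fold changes on this scale understate changes of low genes. Members and lists were chosen with earlier results of these data known. Genes named are those with the highest means by subunit, the 3 largest and 3 smallest changes per comparison, the P-stalk, paralogs with the genes they are named for, 6 genes of known role, the 3 with the widest spread, and genes that were not tested; some genes this rule names are not reported here. Motif searches used RefSeq windows.

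Deviations from group means had r of 0.194, 0.149 and 0.262 between same-numbered control and 1 h libraries. Libraries with unlike numbers ran from -0.284 to 0.171 in that comparison. At 6 h against 1 h, an unlike-numbered couple reached 0.346 (1 h 3 with 6 h 1). No label pairs the numbers, and these r values do not settle whether they pair. Alternatives were other pseudocounts, filters, scalings, fits, a replicate block and libraries left out.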

Additional observations from a re-analysis of the deposited data

How the results depend on the processing

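No member passed the test in any of 60 refits under 20 other settings (pseudocount, filter, scaling, groups fitted, variance trend, replicate block, libraries left out), and none in 9 refits after scaling on the median ribosomal protein gene, chosen after seeing the data. Those 9 refits take out any shared change of the core genes, so they could only find a member that departed from the others. Calls were also few over all 8391 to 17559 genes tested. In the 60 refits they numbered 8 to 52 at 1 h, 0 to 25 at 6 h and 8 to 104 between the times. In the 9 scaled refits they numbered 11 to 27, 0, and 27 to 39. The lowest limma adjusted p was 0.0761, for Rps19bp1 at 6 h against 1 h without both control 3 and 6 h 2. With a replicate block 0 members were called. The medians (0.03, 0.35 and 0.33) were those of the fit without it, as they must be when each group holds every replicate number. Between 6 h and the other groups, same-numbered libraries had r from -0.350 to 0.041.

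Without both control 3 and 6 h 2, the median of the members at 6 h against control was -0.086, and -0.068 relative to all genes. Leaving out each library in turn, the median at 1 h ran from -0.199 (without control 3) to 0.185, at 6 h from 0.114 (without control 3) to 0.549 (without 6 h 1), and at 6 h against 1 h from 0.118 (without 6 h 2) to 0.514; relative to all genes it ran from -0.048 to 0.336, 0.167 to 0.595, and -0.0053 to 0.405. The cause of these moves was not tested. Leaving the 20 highest other genes out of the sum raised the members' share in all 9 libraries by a factor of 1.09 to 1.11, as a smaller sum must; in the 1 h libraries, to 13.8%, 13.9% and 12.7%, this was more than their SD.

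Of 20 gene changes given in the text, 11 changed sign somewhere, in 24 of 400 values, and 0 crossed the threshold. Without both libraries the values were -0.047 (Rpl39) at 1 h, -0.012 (Rplp0), -0.090 (Rplp1), -0.0028 (Rplp2) and -0.114 (Rps27l) at 6 h, and -0.015 (Rpl7), -1.25 (Rps27rt) and -0.109 (Rps4x) at 6 h against 1 h. Same-sum scaling gave -0.018 and quantile normalization -0.0087 for Rps27l at 6 h, and same-sum and median-of-ratios scaling gave -0.056 and -0.018 for Rps27rt between the times. With single libraries left out the ranges were -0.047 to 0.351 (Rpl39) and -0.352 to 2.01 (Rpl31-ps12) at 1 h. They were -0.137 to 1.60 (Rpl31-ps12), -0.0063 to 0.366 (Rpl7l1) and -0.105 to 0.262 (Rps27l) at 6 h, and -0.015 to 0.332 (Rpl7), -1.25 to 1.25 (Rps27rt) and -0.109 to 0.360 (Rps4x) at 6 h against 1 h. The 4 members that did not reach 1 FPKM in 3 libraries could not be tested at this depth.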
